A study of Mus musculus with 6 samples.

Results

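The 36 genes described here encode the machinery that folds proteins in the endoplasmic reticulum (ER) and removes those that fail to fold. They were taken by gene symbol from a fixed list of ER chaperones, disulfide and proline folding enzymes, translocation subunits, stress sensors and degradation factors, out of 27263 genes with a value in the files. All 36 were found, with Vimp under its present symbol Selenos. The cells were primary bone marrow stromal cells of C57BL/6 mice, sorted as positive for Sca-1 and CD29 and negative for CD45 and CD11b, then grown in 10% fetal bovine serum. One group of 3 libraries came from cells kept for 3 days with PBS, the buffer control, and the other group of 3 from cells kept for 3 days with 50 nM rGCA. What rGCA stands for is not spelled out in the labels; from knowledge of the study it is recombinant grancalcin, which binds calcium and is made by myeloid cells. The labels give no genotype beyond the strain, no age or sex, and do not say that the 3 libraries of a group were separate animals or cultures. The p-values therefore rest on a spread between libraries that may be technical.

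Proteins that enter the ER are bound by the chaperone BiP, the product of Hspa5, receive disulfide bonds from enzymes of the protein disulfide isomerase family, and are taken back to the cytosol for destruction when folding fails. Load on this system is read by 3 sensors: ATF6, a membrane-bound transcription factor, IRE1 (Ern1), which splices the Xbp1 mRNA, and PERK (Eif2ak3), which slows translation and raises the transcription factor ATF4. Stromal cells that lay down bone matrix secrete much collagen and depend on this machinery.

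The promoters of many of these genes carry the ER stress element (ERSE), the sequence through which ATF6 acts together with the CCAAT-binding factor NF-Y. RefSeq promoter windows (GRCm38.p6, 250 bases before to 50 bases after the start site) were at hand for 31 of the 36 genes. ERSE was searched on both strands as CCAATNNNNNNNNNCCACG and its shorter form, ERSE-II, as ATTGGNCCACG. One or the other was found in 12 of the 31 genes (38.7%), against 49 of 27025 genes in the table (0.181%). ERSE was in 10 of the members (32.3%) and ERSE-II in 2 (6.45%), Dnajb11 and Herpud1. The sites (11 of ERSE, 2 of them in Hsp90b1, and 2 of ERSE-II) are shown because these 12 members hold one form or the other. The members were chosen in part as genes of the ATF6 and XBP1 arms, so the share with ERSE is not independent of that choice. Each is written 5′ to 3′ on the strand that reads CCAAT or ATTGG first, with the fixed bases in capitals and the free bases in lower case.
Hspa5: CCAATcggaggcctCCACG
Hsp90b1 (upstream copy): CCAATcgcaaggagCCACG
Hsp90b1 (downstream copy): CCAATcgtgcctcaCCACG
Calr: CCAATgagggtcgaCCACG
Canx: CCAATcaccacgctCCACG
Dnajb11: ATTGGcCCACG
Dnajc3: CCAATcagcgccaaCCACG
Pdia6: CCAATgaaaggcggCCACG
Ero1lb: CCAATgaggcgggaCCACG
Creld2: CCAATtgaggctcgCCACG
Herpud1: ATTGGgCCACG
Syvn1: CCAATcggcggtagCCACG
Derl3: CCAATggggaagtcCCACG
In 6 of the 11 ERSE sites and in both ERSE-II sites this strand is the strand of the gene. The window of Hspa5 (chr2:34771840-34772139, plus strand) is shown whole as the best known example, with its single exact ERSE in capitals, at −65 to −47 from the start site.
Hspa5: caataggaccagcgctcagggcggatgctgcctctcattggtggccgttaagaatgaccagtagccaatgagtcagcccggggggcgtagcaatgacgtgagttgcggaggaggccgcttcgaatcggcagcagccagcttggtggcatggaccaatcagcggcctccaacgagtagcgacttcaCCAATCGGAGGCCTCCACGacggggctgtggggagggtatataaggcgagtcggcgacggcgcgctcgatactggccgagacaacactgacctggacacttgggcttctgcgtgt
The window of Ero1l (chr14:45318523-45318822, minus strand), listed by RefSeq as Ero1a, is shown because this gene had the largest difference of the 35 members tested. It held neither form of ERSE, nor TGACGTGG, the unfolded protein response element (UPRE), nor TGATGNAA, an element through which ATF4 acts.
Ero1l: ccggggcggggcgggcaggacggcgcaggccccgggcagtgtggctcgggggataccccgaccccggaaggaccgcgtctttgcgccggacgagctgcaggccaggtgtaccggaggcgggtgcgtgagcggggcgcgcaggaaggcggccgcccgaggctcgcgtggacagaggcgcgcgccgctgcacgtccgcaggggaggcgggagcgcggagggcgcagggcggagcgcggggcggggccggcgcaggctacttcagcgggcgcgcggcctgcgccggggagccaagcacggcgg
Of the 3 windows of Txndc5, the other member that passed the test, 1 held the UPRE (chr13:38527865-38528164, minus strand), shown in capitals, which 0.714% of all genes in the table also hold. Another of its windows held TGATGNAA.
Txndc5: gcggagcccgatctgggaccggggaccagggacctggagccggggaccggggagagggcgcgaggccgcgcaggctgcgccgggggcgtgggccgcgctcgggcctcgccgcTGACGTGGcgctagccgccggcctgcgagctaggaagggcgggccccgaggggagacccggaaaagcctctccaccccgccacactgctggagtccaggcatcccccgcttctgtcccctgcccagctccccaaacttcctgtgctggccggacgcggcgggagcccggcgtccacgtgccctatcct
A match is a run of letters and not a shown binding site, and no match says only that these letters are not in this window.

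**Figure D1:**
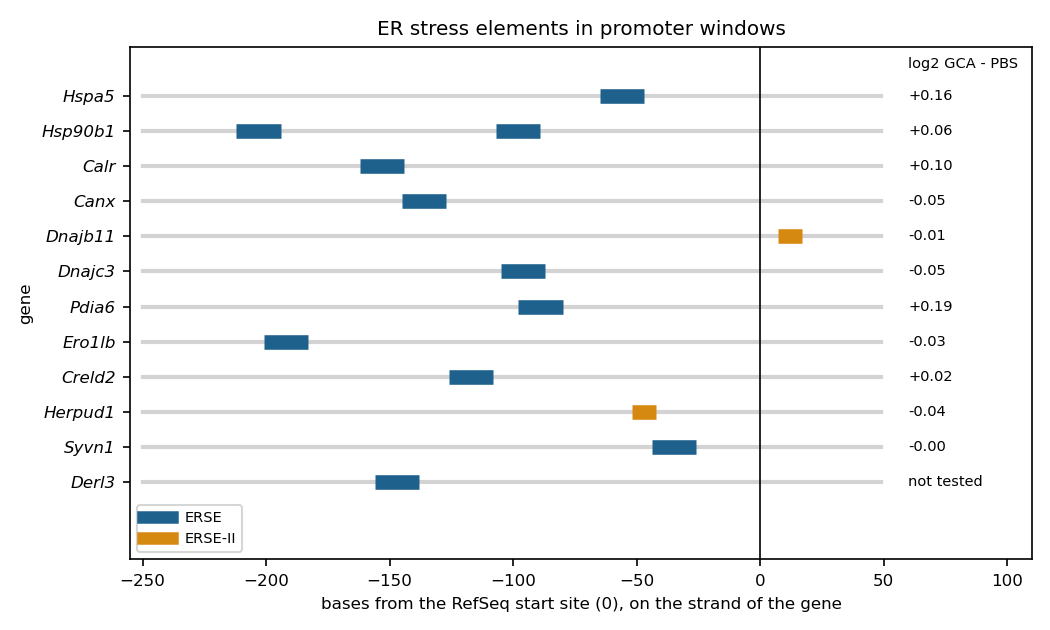
Positions of ERSE (blue) and ERSE-II (orange) in the promoter windows of the 12 members that hold one, in bases from the RefSeq start site, with the log2 difference between GCA and PBS at the right. The sites lie between −212 and −26 except in Dnajb11, where the site lies after it, and none of the 11 tested genes passed the test.

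Fragment totals differed little between libraries, and the labelled cell type was present together with another. The deposited values are FPKM, that is, fragments scaled to the exon length of the gene and to a total per library. The totals read from the values were 17543509 to 18645932 fragments. The fragments recovered over all genes sum to more, 18929244 to 19943239, so these totals are the denominators of the scaling and not plainly the depth. Correlations of log values across genes, which are not independent replicates, were 0.9894 to 0.994 within groups and 0.9813 to 0.9848 between them. Of 14 stromal markers 12 had a mean of at least 1 FPKM, among them Ly6a (Sca-1) and Itgb1 (CD29), the markers of the sort. Of these 12 none rose, 3 fell (Col1a2, Col3a1 and Pdgfrb) and 9 did not pass (over all tested genes 11.5% rose and 6.43% fell). Col1a1 was among those that did not pass (limma adjusted p = 0.0578). The 3 collagens Col1a1, Col1a2 and Col3a1 summed to 2039 to 2339 FPKM with PBS and 1721 to 1847 with GCA. The sum of the other 9 stromal markers overlapped between groups, at 798 to 851 FPKM with PBS and 768 to 863 with GCA. Among these 9, Pdgfrb fell from 29.3 to 22.0 FPKM by group means (limma adjusted p = 0.00847). Itgb1 was lower in every GCA library but did not pass. Ly6a was at 284 FPKM with PBS and 324 with GCA by group means and did not pass. All 15 macrophage markers had a mean of at least 1 FPKM, Ptprc (CD45) and Itgam (CD11b) included: 8 rose and 1 fell, against 11.5% and 6.43% of all tested genes. The one that fell was Lyz2, at 12625 to 14220 FPKM with PBS and 8078 to 9691 with GCA. The other 14 summed to 7718 to 8641 FPKM with PBS and 9550 to 10092 with GCA. GCA replicate 2 stood apart from GCA replicates 1 and 3 for Adgre1 (420 against 256 and 224 FPKM) and Itgam (40.9 against 24.9 and 25.7), as it did for several members described below. No B cell, T and NK cell or erythroid marker reached a mean of 1 FPKM, and neither did 6 of the 9 plasma cell markers with values. Summed neutrophil markers were at 3.04 to 5.31 FPKM with PBS and 2.45 to 5.02 with GCA, and endothelial markers at 2.28 to 2.54 and 2.25 to 2.78. The part of macrophages in the values of the ER genes was not tested. In such a mixed sample, fewer cells of a type and less RNA per cell cannot be told apart.

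ER folding and degradation genes were for the most part at close to the same level with GCA as with PBS. Differences are on the scale of log2(FPKM + 1), from limma fitted to the 11984 genes whose mean reached 1 FPKM, with Benjamini-Hochberg adjusted p under 0.05 as the threshold. Of the 36 genes 35 could be tested: 2 fell, Ero1l and Txndc5, none rose and 33 did not pass. The share that passed was 5.71%, against 17.9% of all tested genes (11.5% higher and 6.43% lower). The share of members depended on the fit: without GCA replicate 2 it was 14.3% (5 genes) against 17.3% of all genes, and by limma-voom on recovered fragments 17.1% (6 genes) against 22.3%. With no filter on low values it was 5.56% against 3.94%. Of the calls over all genes 64.2% were higher, and 53.8% after quantile normalization. With an unadjusted p under 0.05 the count was 7, against a background of 32.8%. The groups did not overlap in 10 members, 5 higher and 5 lower with GCA, where 38.5% of all tested genes did so (21.6% higher, 16.8% lower). The median difference was −0.014 over the members and 0.0056 over all tested genes. The median size of the difference, without its sign, was 0.052 over the members and 0.11 over all tested genes. The members were not measured less precisely: their median standard error was 0.055, against 0.069 over all tested genes.

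The intervals bound what could have been missed. For 31 of the 35 members the 95% interval of the difference lay within 0.32 log2 units either way, a bound chosen after the values were seen, against 59.2% of all tested genes. The 4 members whose interval went past it were Ero1l, Txndc5, Ern1 and Sdf2l1. A rise of more than 0.32 log2 units was outside the interval of 34 members, the exception being Sdf2l1. Derl3, a derlin of secretory cells, was not tested: it stood at 0.20 ± 0.07 FPKM with PBS and 0.18 ± 0.08 with GCA (SD, n = 3 each), a mean of 6.83 fragments per library.

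**Figure D2:**
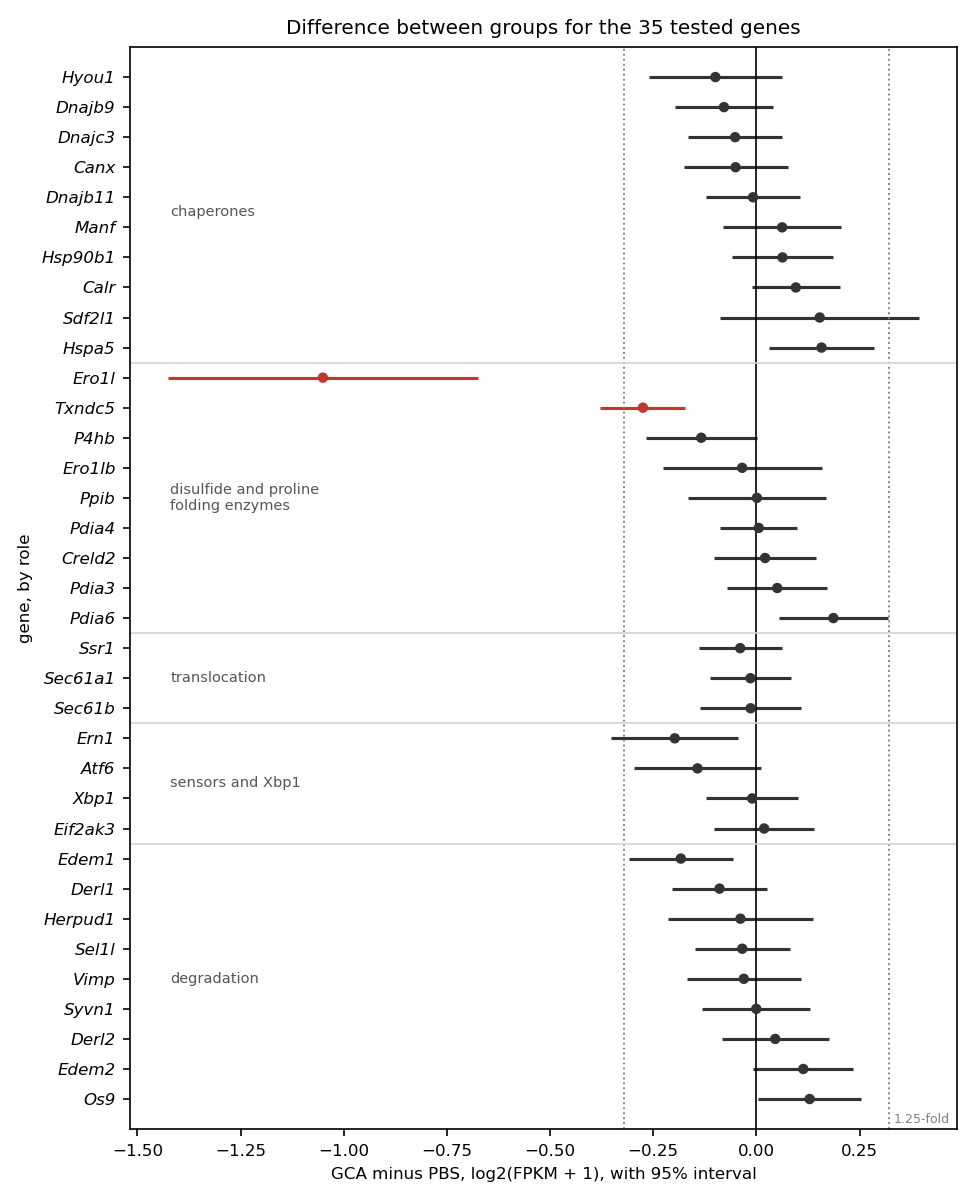
Difference between GCA and PBS on the log2(FPKM + 1) scale (points) with its 95% interval (lines) for the 35 tested members, by role. Dotted lines mark 0.32 log2 units either way, red marks the 2 genes past the threshold, Ero1l and Txndc5, and 31 of the 35 intervals lie between the dotted lines.

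Both genes that passed belong to disulfide bond formation. Ero1l (ENSMUSG00000021831, chromosome 14, 45283087 to 45318771, minus strand, GENCODE M21 on GRCm38) encodes the oxidase that recharges protein disulfide isomerases, and is known to be induced by low oxygen and by ER stress. Its level was 25.9, 28.2 and 23.8 FPKM in PBS replicates 1 to 3 and 10.7, 15.6 and 10.3 FPKM in GCA replicates 1 to 3. The groups did not overlap, and GCA replicate 2 was the highest of the GCA libraries. The fall was 2.13-fold by group means, from 26.0 ± 2.20 to 12.2 ± 2.96 FPKM (SD, n = 3 each), with a log2 difference of −1.05 (SE 0.16, 95% interval −1.43 to −0.67, limma adjusted p = 0.00735). Txndc5 (ENSMUSG00000038991, chromosome 13, 38500079 to 38528824, minus strand) encodes a disulfide isomerase with several thioredoxin domains. Its level was 67.5, 67.7 and 64.3 FPKM with PBS and 54.2, 53.8 and 56.2 FPKM with GCA. It fell 1.21-fold (log2 −0.28, SE 0.045, 95% interval −0.38 to −0.17, limma adjusted p = 0.00555), and again the groups did not overlap. Of its exonic bases 6.9% and 5.0% are shared with Gm31834 and Bmp6 on the opposite strand, and no source used here says whether counting used strand.

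**Figure D3:**
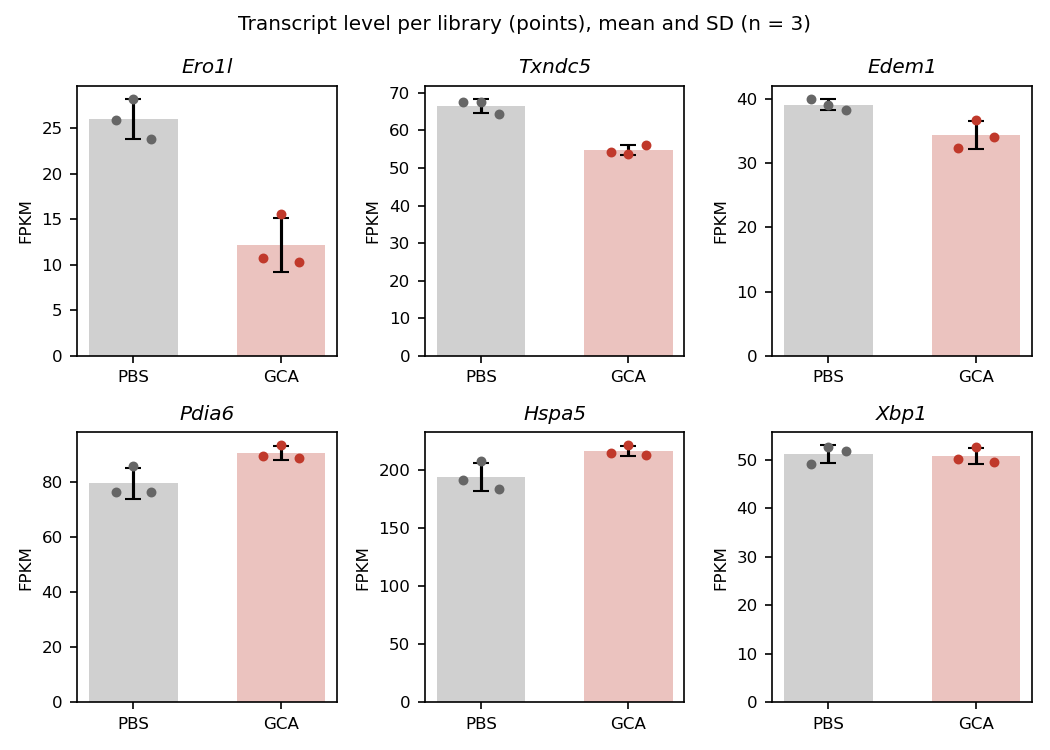
Transcript level in FPKM (vertical axes from 0) of 6 members by group, with points for libraries, bars for means and error bars for the SD over 3 libraries. Ero1l, Txndc5 and Edem1 are lower in all 3 GCA libraries than in any PBS library, Pdia6 and Hspa5 higher in all 3, and the groups overlap for Xbp1. Among these 6, Ero1l and Txndc5 passed the test.

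The other 7 enzymes of this group did not pass. Pdia6, a disulfide isomerase that also acts on the stress sensors, was at 76.3, 86.0 and 76.6 FPKM with PBS and 89.6, 93.5 and 88.9 with GCA. The groups did not overlap, and the difference of 0.19 (95% interval 0.054 to 0.32) had a limma adjusted p of 0.0593. Without PBS replicate 2, the highest of the PBS libraries, the adjusted p was 0.0323. P4hb, the founding disulfide isomerase and a subunit of collagen prolyl hydroxylase, was at 314, 324 and 305 FPKM with PBS and 277, 309 and 274 with GCA, where GCA replicate 2 overlapped with PBS. Its difference was −0.13 (adjusted p = 0.155), and −0.19 without GCA replicate 2 (adjusted p = 0.0346). Ero1lb, the second ER oxidase, was at 4.82 and 4.69 FPKM by group means. Pdia3, which works on glycoproteins, was at 269 and 279 FPKM, Pdia4 at 79.9 and 80.2, and Creld2, an ER protein induced by stress, at 23.7 and 24.0. Ppib, the proline isomerase cyclophilin B that helps fold collagen, was at 27.2 FPKM in both groups. For Ppib, 825 of 3305 exonic bases lie opposite exons of Snx22. Among these 7 the largest difference in size was that of Pdia6.

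Ratios within a library do not depend on its scaling, and 3 were taken between related members after their values had been seen. Ero1l over Ero1lb was 5.41 ± 0.56 with PBS and 2.60 ± 0.50 with GCA (SD, n = 3 each). Pdia6 over Txndc5 was 1.20 ± 0.07 and 1.66 ± 0.08. Edem1 over Edem2, a pair described below, was 3.05 ± 0.03 and 2.46 ± 0.04. Since the pairs were chosen for their differences, these ratios are a description, with no test, and do not show that either gene of a pair stayed the same.

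Among the 10 chaperones and cochaperones none passed, against 17.9% of all tested genes, with a median difference of 0.027. Hspa5 (chromosome 2, 34771970 to 34777547) was at 191, 208 and 184 FPKM with PBS and 215, 222 and 213 with GCA. Every GCA library was above every PBS library, by 1.11-fold in the means, with a difference of 0.16 (95% interval 0.030 to 0.29, limma adjusted p = 0.0861). Calr, which encodes calreticulin, the soluble lectin chaperone that also stores calcium, was the most abundant member. It was at 343, 351 and 328 FPKM with PBS and 366, 369 and 357 with GCA, without overlap (difference 0.095, adjusted p = 0.196). Its membrane-bound relative Canx, or calnexin, was at 139 and 134 FPKM, with overlap. Hsp90b1, the ER form of HSP90, was at 102 and 107 FPKM, with 10.3% of its exonic bases opposite 1810014B01Rik. Hyou1, which exchanges the nucleotide of BiP, was at 17.5 and 16.2 FPKM. The J-domain partners of BiP, which deliver clients to it, stood at 19.1 and 18.1 FPKM (Dnajb9), 37.0 and 36.7 (Dnajb11) and 35.2 and 33.9 (Dnajc3). Manf, a secreted partner of BiP, was at 16.6 and 17.4 FPKM. Sdf2l1, which works with Dnajb11, was at 41.2, 41.6 and 39.7 FPKM with PBS and 43.7, 54.3 and 39.7 with GCA. GCA replicate 2 stood above the other 5 libraries for Sdf2l1, and its interval was the widest of the chaperones, at −0.088 to 0.39.

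None of the 3 stress sensors passed, and neither did Xbp1, where 17.9% of all tested genes passed. In Ern1 and Atf6 every GCA library was below every PBS library, as in 16.8% of all tested genes. Ern1 was at 6.31, 5.61 and 5.53 FPKM with PBS and 5.08, 5.11 and 4.63 with GCA. The difference was −0.20 (95% interval −0.35 to −0.044), with a limma adjusted p of 0.0772. Atf6 was at 11.81, 11.71 and 11.64 FPKM with PBS and 9.58, 11.58 and 10.49 with GCA. GCA replicate 2 came close to the lowest PBS library, and its difference of −0.14 had an adjusted p of 0.181. Without GCA replicate 2 the difference was −0.21, with an adjusted p of 0.0483. Eif2ak3 was at 5.07, 4.98 and 5.15 FPKM with PBS and 4.97, 5.26 and 5.21 with GCA. The groups overlapped, with a difference of 0.019 (95% interval −0.10 to 0.14, adjusted p = 0.844). Xbp1, the transcription factor made active by IRE1, was at 49.2, 52.7 and 51.7 FPKM with PBS and 50.2, 52.8 and 49.5 with GCA. Its difference was −0.0105 (95% interval −0.12 to 0.10, adjusted p = 0.91). These values are sums over a gene's transcripts, so they do not tell spliced from unspliced Xbp1 mRNA.

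In ER-associated degradation 9 of 10 genes were tested and none passed, with a median difference of −0.031. Over all tested genes 17.9% passed. With so few genes the gap is not read as a difference, and it was not tested. The mannosidase-like proteins that mark misfolded glycoproteins had differences of opposite sign. Edem1 (chromosome 6, 108828641 to 108859356) was at 40.01, 39.0 and 38.3 FPKM with PBS and 32.4, 36.6 and 34.1 with GCA. It was lower in every GCA library, with a difference of −0.18 (95% interval −0.31 to −0.057, limma adjusted p = 0.0534). Without GCA replicate 2 the adjusted p was 0.0196. Edem2 was at 13.05, 12.96 and 12.47 FPKM with PBS and 13.4, 14.8 and 13.8 with GCA, higher in every GCA library (difference 0.11, adjusted p = 0.177). Os9, the lectin that hands glycoproteins to the ubiquitin ligase, was at 86.8, 87.0 and 81.5 FPKM with PBS and 90.2, 90.3 and 99.1 with GCA. It too did not overlap between groups, with a difference of 0.13 and an adjusted p of 0.143. Derl1, a channel-forming derlin, was at 61.5, 65.1 and 61.5 FPKM with PBS and 58.8, 61.5 and 56.3 with GCA (difference −0.089, adjusted p = 0.258), with overlap. The ligase Syvn1 (HRD1) was at 12.8 FPKM in both groups, and its partner Sel1l at 24.2 and 23.6. Herpud1, which organises that complex and carries an ERSE-II, was at 40.9 and 39.95 FPKM. Derl2 was at 9.48 and 9.81 FPKM and Vimp, an adaptor for the ATPase p97, at 58.6 and 57.3.

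The 3 translocation genes differed least in size among the role groups, with differences between −0.039 and −0.014 and standard errors of 0.042 to 0.053. Sec61a1, the pore subunit, was at 27.05 and 26.8 FPKM, its partner Sec61b at 52.7 and 52.1, and Ssr1, of the translocon-associated complex, at 20.3 and 19.7. In each of the 3 the groups overlapped.

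Members with and without an ERSE can be set side by side. The 11 tested members with either form had differences from −0.052 to 0.19 with a median of −0.00045, and none passed. Hspa5, Calr and Pdia6 were the 3 of them with every GCA library above every PBS library, and none had every GCA library below. Over all tested genes 21.6% were higher and 16.8% lower in this way, and 17.9% passed. The 19 tested members with a window and neither form ranged from −1.05 to 0.15 with a median of −0.014. Both genes that passed were among these 19. Of the 19, 4 had every GCA library below every PBS library and 2 had every GCA library above. Of the 5 members with no window, 1 had every GCA library below and none above. The counts 3 of 11 and 4 of 19 lie near the shares over all genes. This is a description, with no test of the split.

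Summed over the members, the range of the PBS libraries covered all 3 GCA libraries. The summed level of the 35 members was 2338, 2446 and 2277 FPKM in PBS replicates 1 to 3 and 2338, 2428 and 2324 FPKM in GCA replicates 1 to 3. PBS replicate 2 was above the PBS mean for 28 of the 35 members and PBS replicate 3 for 8. The 3 GCA libraries were above it for 17, 16 and 15 members. The median deviation of a library from the PBS mean ran from −0.040 (PBS replicate 3) to 0.041 (PBS replicate 2) on the log2 scale, and the GCA libraries lay between these, at −0.0061, −0.0030 and −0.022.

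**Figure D4:**
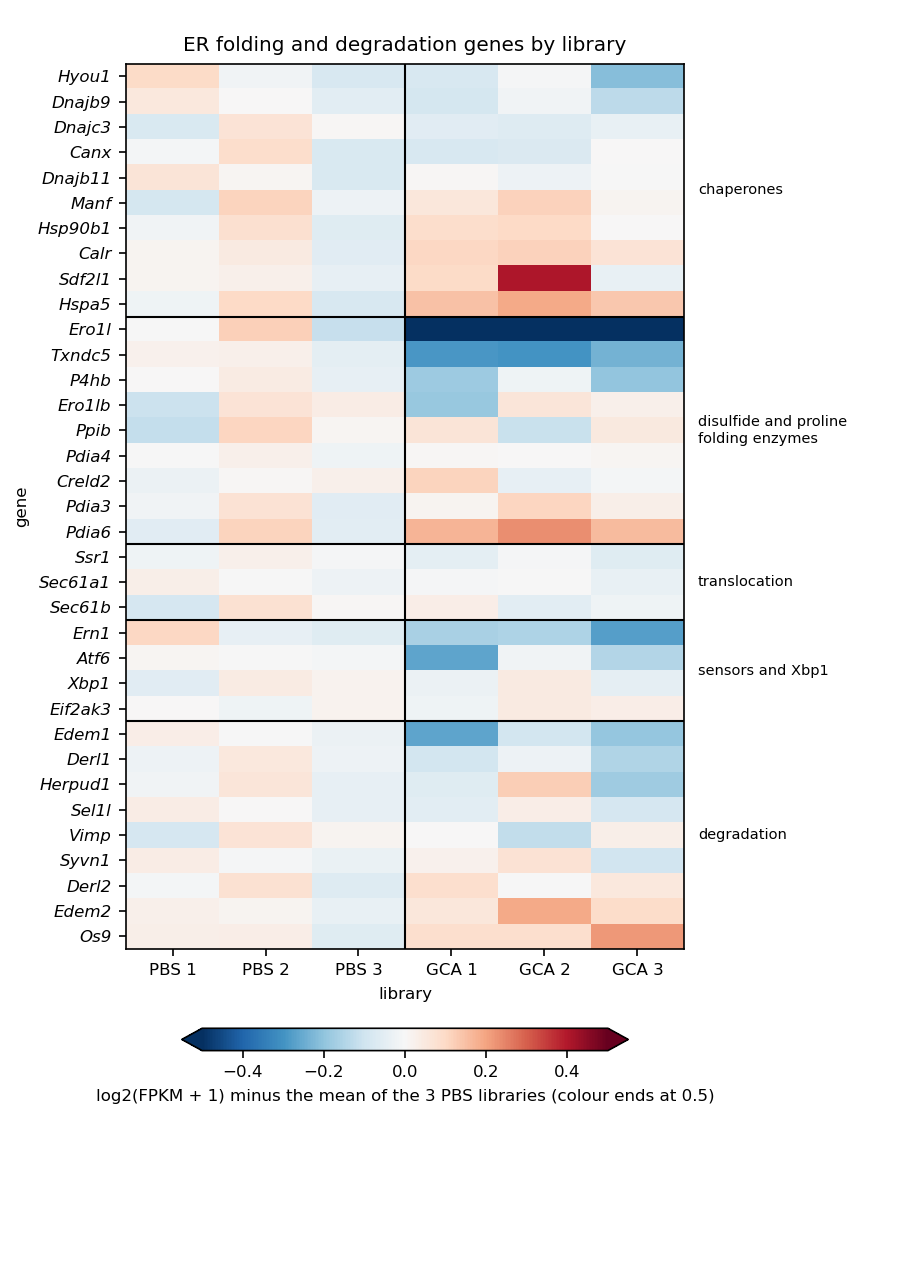
Heat map of the 35 tested members (rows, by role) in the 6 libraries (columns), coloured by log2(FPKM + 1) minus the mean of the PBS libraries, with colour ending at 0.5 either way. Ero1l is at the dark end in all 3 GCA libraries, Txndc5 is lower in all 3, Sdf2l1 stands out in GCA replicate 2 alone, and most other rows are pale in every library.

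The wider ER machinery was counted over lists set by function, chosen with earlier results of these data known. The 8 lists of ER genes outside the members held 131 tested genes, of which 5 rose and 21 fell, with a median difference of −0.057. Called in either direction were 19.8%, against 17.9% of all tested genes. Over all tested genes 11.5% rose and 6.43% fell, so rises outnumbered falls there, while falls outnumbered rises in these lists. Among 26 other folding enzymes and cochaperones 2 rose and 5 fell. Pdia5, a further disulfide isomerase, fell from 16.2 ± 1.09 to 12.8 ± 0.34 FPKM (limma adjusted p = 0.00946). Fkbp14, a proline isomerase that acts on collagen, fell from 19.6 ± 0.46 to 15.6 ± 1.11 FPKM (adjusted p = 0.0097). Fkbp10, another collagen isomerase, fell from 56.1 ± 1.33 to 47.5 ± 2.45 FPKM (adjusted p = 0.0163), and Tmx2, a membrane-bound thioredoxin relative, rose from 20.3 ± 1.22 to 24.6 ± 0.99 FPKM (adjusted p = 0.0154). Leaving out PBS replicate 1, PBS replicate 3 or GCA replicate 1 ended the calls of Fkbp10 (adjusted p = 0.0502 to 0.0607) and Tmx2 (0.0517 to 0.0589). Over all 14 alternatives Fkbp10 and Tmx2 each lost the call in 4. Among the stromal markers the 3 collagens had a lower sum in every GCA library. The sum of the other 9 overlapped, although Pdgfrb among them fell, as given above. The part of these markers in the falls of the ER genes was not tested.

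In glycan trimming and quality control 1 of 9 genes rose and 2 fell (over all tested genes 11.5% rose and 6.43% fell). Fbxo6, which binds glycoproteins for ubiquitination, rose from 14.8 ± 0.32 to 18.2 ± 0.72 FPKM (limma adjusted p = 0.00713). The lectin malectin, Mlec, fell from 70.4 ± 3.70 to 59.0 ± 2.21 (adjusted p = 0.0163) and the glucosidase Mogs from 9.98 ± 0.18 to 8.34 ± 0.33 (adjusted p = 0.0165). With no filter on low values the call of Mlec was lost (adjusted p = 0.0586). Without PBS replicates 1 and 2 and GCA replicate 1 in turn the adjusted p of Mogs was 0.0501, 0.0571 and 0.06. Mogs lost its call in 4 of 14 alternatives in all. Of 12 oligosaccharyltransferase genes 1 rose (Ddost) and 1 fell (Stt3b), and leaving out any 1 of the 6 libraries ended both calls (limma adjusted p = 0.0585 to 0.134 for Ddost and 0.0627 to 0.104 for Stt3b). The call of Ddost was also lost after quantile normalization (0.0622) and median centring (0.0547), among others. Ddost lost its call in 11 of 14 alternatives in all, and Stt3b in 8. Of 19 other translocation and signal peptide genes none was called by limma and 2 had an unadjusted p under 0.05, while it called 17.9% of all tested genes.

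Of 21 other degradation genes none rose and 3 fell, Rhbdd1, Hm13 and Rnf5, against 11.5% of all tested genes higher and 6.43% lower. Rhbdd1 lost its call without PBS replicate 1, PBS replicate 2 or GCA replicate 1 (limma adjusted p = 0.0521 to 0.0554). Hm13 lost its call without any library but GCA replicate 2 (0.0728 to 0.103), and Rnf5 without any but GCA replicate 3 (0.0839 to 0.14). Over all 14 alternatives the call was lost in 4 for Rhbdd1, 6 for Hm13 and 9 for Rnf5. Of 10 other ER stress regulators 1 rose, Tmbim6, an inhibitor of cell death, from 176 ± 4.37 to 198 ± 1.07 FPKM (limma adjusted p = 0.0298). Its adjusted p was 0.0706 to 0.113 without PBS replicate 2, PBS replicate 3, GCA replicate 1 or GCA replicate 3, and 0.0954 after quantile normalization. In all, Tmbim6 lost its call in 8 of 14 alternatives.

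Genes of the PERK and ATF4 arm, which is also driven by kinases that sense amino acid and heme supply, were lower with GCA in most cases. Of 12 genes none rose and 9 fell, against 6.43% of all tested genes, with a median difference of −0.31. This list was chosen with earlier results of these data known, so the count is a description and not a test of the list. Atf5, a transcription factor of this arm, was at 54.4, 53.5 and 50.7 FPKM with PBS and 24.6, 33.1 and 28.3 with GCA (limma adjusted p = 0.0015). Chac1, which breaks down glutathione, was at 5.96, 6.66 and 4.52 FPKM with PBS and 1.51, 2.37 and 2.39 with GCA (adjusted p = 0.0046). Asns, asparagine synthetase, fell by 0.67 on the log2 scale (adjusted p = 0.00692) and Atf3 by 0.47 (adjusted p = 0.00384). The other 5 that fell were Atf4, Trib3, Ddit3, Sesn2 and Nupr1, and Ppp1r15a, Ppp1r15b and Eif2s1 did not pass. Atf5, Asns and Atf3 kept their calls in all 14 alternatives and Chac1 in the 13 that tested it. For the other 5 the alternatives were not examined gene by gene. Sesn2 was near the threshold (limma adjusted p = 0.0429). Trib3 was at 2.64, 6.06 and 3.28 FPKM in GCA replicates 1 to 3. Differences in this list ran from −1.65 (Trib3) to −0.019 (Eif2s1), against −1.05 for Ero1l. Promoter windows were at hand for 11 of the 12, and none held ERSE or ERSE-II. TGATGNAA, a motif added after the values were seen, was in 5 of the 11 (45.5%). The share was 4.51% over all genes in the table and 6.45% over the members. The list was chosen as genes of the PERK and ATF4 arm, so its share with this ATF4 element is not independent of that choice. A difference between this list and the members was not tested.

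**Figure D5:**
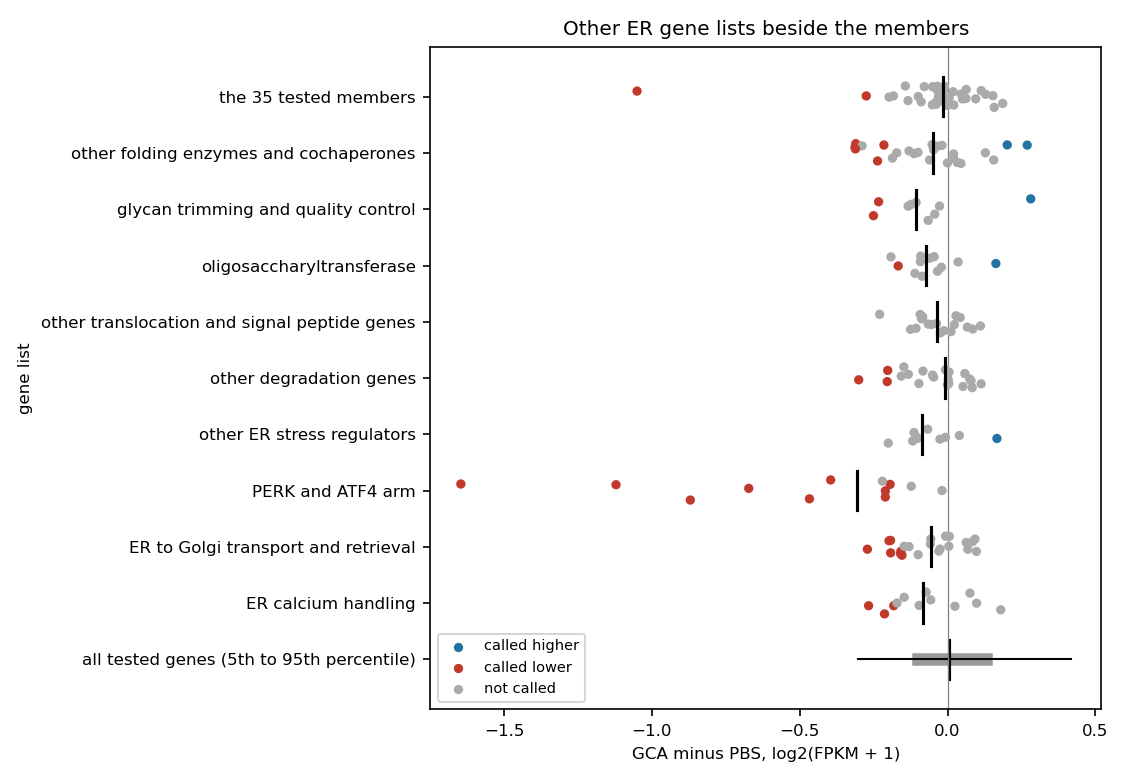
Difference between GCA and PBS on the log2(FPKM + 1) scale for each tested gene (points) of the members and 9 further lists, with list medians as black bars and, at the bottom, the 5th to 95th percentile of all tested genes. The PERK and ATF4 arm has its median at −0.31 and 9 of 12 genes called lower (red), while the members centre on −0.014 with 2 called lower.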

How the data were processed

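RNA was measured in 6 libraries of mouse bone marrow stromal cells, 3 with PBS and 3 with rGCA, with paired-end reads of 150 bp, per the labels. The values deposited by the authors are FPKM per Ensembl gene. No header names the unit, which was read from the values: multiplied by exon length in GENCODE M21, 91.0% of values were whole fragments within 0.02 fragment. The submitters' processing notes name Bowtie 0.12.2 and 2 builds, mm8 and mm9. No source used here gives the counting tool, annotation, filters or use of strand. Gene coordinates come from GENCODE M21 (GRCm38) by identifier (27204 of 27263 genes matched). Promoters are from RefSeq on GRCm38.p6.

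The test was limma 3.58.1 (R 4.3.3) with trend and robust moderation on log2(FPKM + 1), a scale that understates changes of low genes, for genes whose mean reached 1 FPKM, two-sided and adjusted by Benjamini-Hochberg over all tested genes. The step was also run on simulated data, drawn with the same dispersion for every gene and no difference between libraries beyond depth. That run checks the code and not the error rate on these libraries. No 2 libraries of a group agreed within sampling noise (mean chi-square per gene 5.37 to 20.2). The members, role groups and lists were chosen with earlier results of these data known. Named were members past the threshold, members with the smallest p up to 12 in all, the sensors with Xbp1, and up to 4 called genes of each other list; genes named outside this rule were chosen after their values were seen. The 3 ratios, the split of marker sums, the bound on intervals and the motif TGATGNAA were also chosen after values were seen. A planned search of protein ends was not run. Alternatives were 2 normalizations, 2 filters, another pseudocount, another variance model, the replicate block, limma-voom on recovered fragments and leaving out each library.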

Additional observations from a re-analysis of the deposited data

How the results depend on the processing

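Ero1l and Txndc5 kept direction and call in all 14 alternatives, with differences from −1.23 to −0.95 and −0.30 to −0.26 on the log2 scale. No member changed direction while called. The number of members called, 2 in the report, was 3 after quantile normalization or median centring (with Edem1), 4 with a filter at a mean of 5 FPKM (with Edem1 and Pdia6 higher) and 6 by limma-voom on recovered fragments (with Edem1 and Ern1 lower, Hspa5 and Pdia6 higher). Leaving out each library gave 2 to 5, with 5 without GCA replicate 2 (P4hb, Atf6 and Edem1 added); beside these counts, 25.4% of all genes were called with the filter at 5 FPKM, 22.3% by limma-voom and 17.3% without GCA replicate 2. The median difference of the members was −0.044 after quantile normalization and −0.039 to −0.00048 on leaving out each library. Over all genes the count of 2151 was 1075 with no filter, where 27263 genes were tested, and 1225 to 2078 on leaving out each library: PBS replicate 3 left out gave 1225, PBS replicate 2 gave 1307 and GCA replicate 1 gave 1361. The share of calls that were higher was 64.2%, and 53.8% after quantile normalization. With the replicate number as a block, 2094 genes and 3 members were called, Pdia6 added (adjusted p = 0.0421). Deviations of same-numbered libraries correlated at 0.082, 0.029 and 0.068, below the 0.1 asked for pairing, although each library correlated best with its own number. The cause of these changes was not tested, beyond the fewer or more genes and libraries that some alternatives use.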

Other observations

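Genes that carry cargo from the ER to the Golgi and bring ER residents back were lower in part. Of 22 tested, 7 fell (31.8%) and none rose, against 6.43% of all tested genes lower and 11.5% higher. The median log2 difference was −0.058. Kdelr3, a receptor that returns chaperones such as BiP to the ER, was at 48.1, 51.0 and 52.0 FPKM with PBS and 43.4, 40.2 and 41.0 with GCA, without overlap (limma adjusted p = 0.00963). Sar1a, the GTPase that starts the coat of transport vesicles, fell from 69.7 ± 0.27 to 60.9 ± 2.05 FPKM (adjusted p = 0.02). Its adjusted p was 0.0688 without PBS replicate 2 and 0.0692 without PBS replicate 3. Sec23a, of the same coat, and Lman1, a cargo receptor, fell by 0.20 and 0.19 on the log2 scale, but lost their calls on leaving out some libraries. For Sec23a these were PBS replicates 2 and 3 and GCA replicates 1 and 2 (adjusted p = 0.0574 to 0.0934). For Lman1 they were any but GCA replicate 2 (0.0731 to 0.137). Over all 14 alternatives the call was lost in 3 for Sar1a, 6 for Sec23a and 7 for Lman1.

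In ER calcium handling 3 of 12 genes fell and none rose, against 6.43% of all tested genes lower, with a median of −0.084. Rcn1, a calcium-binding protein of the secretory pathway, fell from 68.6 ± 1.49 to 56.9 ± 3.39 FPKM (limma adjusted p = 0.0122, and 0.0508 without PBS replicate 2). The related Rcn2 and Calu fell by 0.18 and 0.21, and lost their calls in 7 and 8 of 14 alternatives. Their adjusted p was 0.0563 to 0.0872 for Rcn2 and 0.0606 to 0.128 for Calu on leaving out a library, where Rcn2 kept its call without GCA replicate 2 and Calu without GCA replicate 3. Of 12 tested stromal markers 3 fell (Col1a2, Col3a1 and Pdgfrb) and none rose. Col1a1, Col1a2 and Col3a1 together were lower in every GCA library, at 1721 to 1847 against 2039 to 2339 FPKM. The sum of the other 9, Pdgfrb among them, overlapped, at 768 to 863 against 798 to 851 FPKM. The part of these markers in the values of the ER genes was not tested.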
